A study of Caenorhabditis elegans with 7 samples.

Results

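The hedgehog-related genes of the nematode Caenorhabditis elegans were followed in RNA of whole L4 larvae. They were taken as all genes whose WBcel235 symbol is wrt-, grd-, grl-, hog- or qua- followed by a number, which gave 59 protein-coding genes: 31 grl, 16 grd, 10 wrt, 1 hog and 1 qua gene. Of these, 28 lie on chromosome V, 12 on IV, 10 on X, 4 on III, 3 on II and 2 on I. A total of 43 of the 59 had a 3′ UTR entry in the count files, out of 27909 genes with an entry. The other 16 (grd-7, grd-8, grd-11, grd-16, grl-3, grl-13, grl-17, grl-18, grl-19, grl-23, grl-26, grl-28, grl-29, grl-30, grl-31 and wrt-7) were not analysed here. Of the 43, 41 had at least 1 read, and grl-24 and grl-25 were at 0 in all 7 libraries. After the filters on low counts, 33 were tested for total reads and 26 for labelled reads.

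The libraries come from SLAM-ITseq, in which RNA made in 1 tissue during feeding with 4-thiouracil is meant to take up a thiol, and the alkylated base is read as a T>C mismatch. In this method a uracil phosphoribosyltransferase expressed in the chosen tissue makes the label usable. A total of 4 libraries came from the control strain BN1158, labelled as having no FLP recombinase, and 3 from strain BN1190, which expresses FLP in the hypodermis under the dpy-7 promoter; the 2 groups are called control and hypodermal. Any allele or transgene that both strains carry is not named in the labels used here. Each sample pooled larvae of 3 plates, grown for 28 h at 20 °C and then kept on 4-thiouracil for 17 h, and was measured with a 3′ mRNA sequencing kit. The labels do not say whether replicates were separate cultures, so p-values reflect how these samples vary, part of which may be technical.

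Reads in genes ranged from 5040693 in control 2 to 61924868 in hypodermal 1. The share of all gene reads with a T>C mismatch was 2.63–2.79% in controls 1, 3 and 4 and 3.35–3.76% in the hypodermal libraries, but 4.58% in control 2, the shallowest library, which stood apart from its group. A name in the file header begins with a code in the form of a flow cell identifier for controls 2 to 4 and hypodermal 2 and 3. It has no such code for the replicates numbered 1. The former are called libraries with a named flow cell, or flow cell libraries. That the code is a flow cell was inferred from its form, and whether these libraries shared 1 flow cell was not examined. The 8 hypodermis markers were lin-26, elt-3, dpy-7, dpy-10, rol-6, bli-1, nhr-23 and ifb-1. Their summed CPM was 766–972 in the controls and 978–1151 in the hypodermal libraries, all 8 having reads in every library. Not every marker went with the sum: nhr-23 had 61.9 ± 45.3 (SD, n = 4) against 41.0 ± 4.42 (SD, n = 3) CPM. The directions of the others are not given here. The moulting-cycle list had 331–679 against 555–826 CPM and the adult-stage list 1480–3650 against 1066–1757 CPM. Of the 6 seam cell markers, ceh-16, rnt-1, nhr-73 and nhr-74 were at 0 in at least 1 library. The part of these differences in the results on the hedgehog-related genes was not tested.

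Hedgehog proteins are secreted signals that, in flies and vertebrates, are cut by their own C-terminal Hog domain, carry lipid and bind the receptor Patched. C. elegans has no true hedgehog gene, but has secreted proteins that join a Hog domain, or no further domain, to nematode-specific N-terminal domains called Wart (warthog, wrt), Ground (groundhog, grd) and Ground-like (grl). The quahog protein QUA-1 is needed for moulting in C. elegans, and many genes of these families are known to be expressed in epidermal cells, in glia or in other cells that line an outer surface. The worm has no clear Smoothened gene and has a large set of Patched and Patched-related proteins.

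Read levels differed widely among the members. A total of 6 of the 43 members had a mean of over 100 CPM (reads divided by the library's TMM-scaled size and multiplied by 1e6), 17 were between 10 and 100, 9 between 1 and 10, and 9 were above 0 and at most 1. Because the kit reads transcript 3′ ends, CPM is not divided by length, but the order per 100 bases of 3′ UTR was also computed, and its first 7 places were the same. UTR entries were 40 to 401 bases long, with a median of 121.0. All members together held 0.238–0.354% of gene reads in a library. Of these member reads, grd-5, grl-16 and grd-14 supplied 58.8–74.9%.

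Among the groundhog genes, grd-5 (3′ UTR at WBcel235 chromosome V, 8619674–8619869, plus strand) was the most-read member. It had 985, 545, 1333 and 882 CPM in controls 1 to 4 and 897, 1164 and 950.4 CPM in hypodermal libraries 1 to 3. The hypodermal libraries lay within the range of the controls, and control 2 was lowest. The X-linked grd-14 (chromosome X, 8500922–8501037, plus strand) had 319, 585, 347 and 225 CPM in controls 1 to 4 and 176, 357 and 250.1 CPM in hypodermal libraries 1 to 3. Control 2 was highest for this gene, and the groups overlapped. On the scale of CPM per 100 bases of UTR, grd-5 stood at 492 and grd-14 at 278, the first and the third of the 43. Other groundhog genes were far lower: grd-6 and grd-2 had means of 19.4 and 11.4 CPM, and grd-4, which starts 184 bases beyond grd-14 on the same strand, had 0.490 CPM.

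Among the ground-like genes, grl-16 (chromosome I, 572177–572436, minus strand) was second in the whole set. It had 1081, 655, 779 and 578 CPM in controls 1 to 4 and 924, 1093 and 856 CPM in hypodermal libraries 1 to 3. Control 1 and hypodermal 2 were highest, and the groups overlapped; per 100 bases grl-16 stood at 328 CPM. After grd-14, the next 3 members were also ground-like genes. For grl-5 (chromosome V, 4412748–4412878, minus strand) the values were 90.9, 161, 112 and 213 CPM in controls 1 to 4 and 117, 162 and 175 CPM in hypodermal libraries 1 to 3, and for grl-7 (chromosome V, 11344831–11344955, minus strand) they were 115, 108, 78.3 and 221 CPM in controls 1 to 4 and 143, 148 and 164 CPM in hypodermal libraries 1 to 3. In both genes control 4 was highest, and all 3 hypodermal libraries were inside the control range. The gene grl-4 (chromosome IV, 7309838–7310024, minus strand) had 150.1, 135, 181 and 143 CPM in controls 1 to 4 and 81.6, 155 and 125 CPM in hypodermal libraries 1 to 3, with hypodermal 1 lowest and an overlap of the groups. The remaining ground-like genes ranged from 0 to 50.3 CPM, the upper end being grl-21.

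The warthog genes were of middle abundance, and wrt-1, wrt-3, wrt-8, wrt-9 and wrt-10 had means of 3.29 to 20.7 CPM. The X-linked wrt-6 (chromosome X, 3483484–3483649, plus strand) had 49.7, 127, 56.8 and 122 CPM in controls 1 to 4 and 59.2, 83.0 and 84.5 CPM in hypodermal libraries 1 to 3. Controls 2 and 4 were well above controls 1 and 3, with the hypodermal libraries between them. The X-linked wrt-4 (chromosome X, 15752258–15752467, minus strand) had 84.8, 90.2, 42.2 and 53.1 CPM in controls 1 to 4 and 112, 89.4 and 109 CPM in hypodermal libraries 1 to 3, so that hypodermal 1 and 3 exceeded every control and hypodermal 2 did not exceed control 2. For wrt-5 (chromosome IV, 4050049–4050192, minus strand), a gene whose loss disturbs growth and body form in C. elegans, the values were 41.2, 67.6, 72.6 and 67.8 CPM in controls 1 to 4 and 42.6, 49.5 and 57.0 CPM in hypodermal libraries 1 to 3. Controls 2 to 4 lay above all hypodermal libraries and control 1 below them. The X-linked wrt-2 (chromosome X, 3092395–3092513, minus strand) had 16.9, 47.3, 25.2 and 40.3 CPM in controls 1 to 4 and 23.4, 43.7 and 47.6 CPM in hypodermal libraries 1 to 3, the replicates numbered 1 being lowest in their groups. A stretch of 63 bases of its UTR overlaps that of pccb-1 on the opposite strand, and no source used here states whether counting used strand.

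The lone quahog gene, qua-1 (chromosome II, 8203662–8204001, plus strand), had 31.5, 20.8, 26.6 and 60.8 CPM in controls 1 to 4 and 53.8, 41.1 and 54.5 CPM in hypodermal libraries 1 to 3. Control 4 exceeded the hypodermal libraries and the other 3 controls were below all of them. The lone hog gene, hog-1 (chromosome X, 5851954–5852064, minus strand), named for a Hog domain, had 13.8, 5.13, 4.48 and 13.1 CPM in controls 1 to 4 and 14.2, 10.6 and 11.1 CPM in hypodermal libraries 1 to 3. Controls 2 and 3 were lowest, and 18 bases of its UTR overlap that of atat-2 on the opposite strand. In all, 8 of the 43 members have such an opposite-strand overlap, and none shares UTR sequence with another gene on its own strand.

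**Figure D1:**
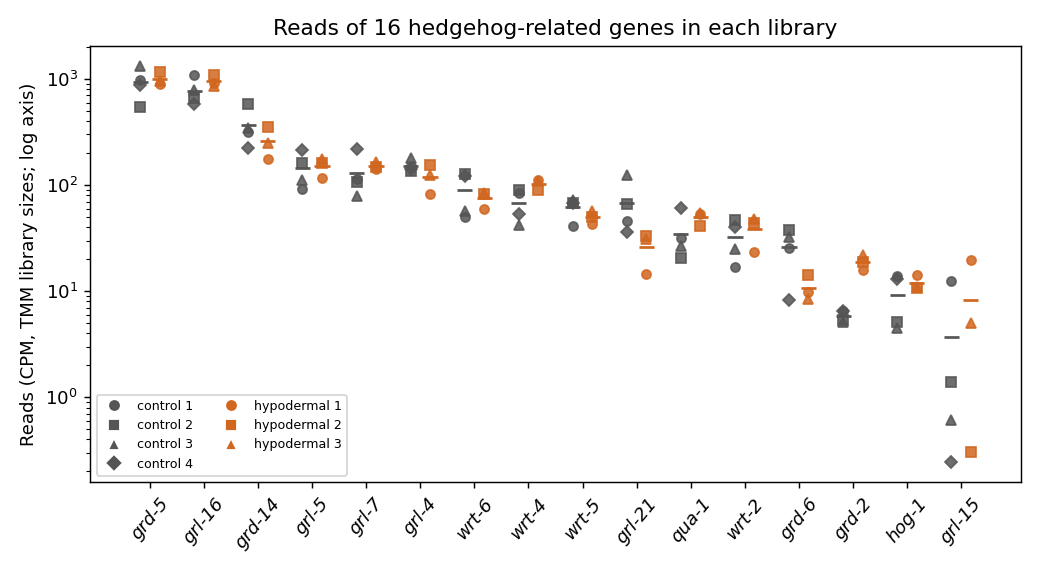
Read levels of the 16 members described library by library, in CPM on TMM-scaled library sizes (log axis). Grey symbols are the 4 control libraries, orange symbols the 3 hypodermal libraries, and horizontal bars the group means. The genes run from grd-5 and grl-16, with means of 965 and 853 CPM, to grl-15, whose libraries differ most among themselves, and the groups overlap except in grd-2 and grl-21.

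The next comparison asked whether members differed in total reads between the strain with hypodermal FLP and the control strain. In bulk RNA of whole larvae, fewer cells of a type and less RNA per cell cannot be told apart. By edgeR's quasi-likelihood test with Benjamini-Hochberg adjustment over 12465 genes, 0 of 33 members passed an adjusted p of 0.05 in either direction, beside 0% of all genes tested for higher and 0.016% for lower reads. At an unadjusted p under 0.05, 1 member (grd-2) was higher, with 0.73% of all genes, and 2 (grd-6 and grl-21) were lower, with 1.55% of all genes. The median log2 fold change of the 33 was 0.21, with 21 above 0, while over all genes the median was −0.0072 and 49.4% were above 0. By family, 5 of 9 grd, 8 of 13 grl and 6 of 9 wrt members were above 0.

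The groundhog gene grd-2 (chromosome V, 20613733–20613929, plus strand) had the clearest separation of the strains. It had 6.54, 5.36, 5.08 and 6.44 CPM in controls 1 to 4 and 15.7, 18.8 and 22.2 CPM in hypodermal libraries 1 to 3. Every hypodermal library was at more than any control, and the controls lay close together. Group means were 5.86 ± 0.740 (SD, n = 4) against 18.9 ± 3.24 (SD, n = 3), a log2 fold change of 1.68 (SE 0.38) or 3.21-fold. Its unadjusted p of 0.000929 ranked 12 of 12465, and the adjusted p was 0.965 by edgeR's quasi-likelihood test, so it did not pass. DESeq2 gave a log2 fold change of 1.65 with an adjusted p of 0.0334 and called this 1 member higher; over all genes it called 0.0722% higher and 0.12% lower. Over the edgeR alternatives the adjusted p of grd-2 was 0.574 to 1.00. In the libraries with a named flow cell alone the log2 fold change was 1.85 (edgeR, adjusted p 0.999). The reads behind grd-2 were few, 23 in control 2 and 42 in control 3 against 1065 in hypodermal 1.

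The members at a lower level were grl-21 and grd-6. GRL-21 is known in C. elegans as a hedgehog-like signal that acts on lipid stores and mitochondria. Its gene (chromosome IV, 10738055–10738189, plus strand) had 45.8, 66.7, 125 and 36.0 CPM in controls 1 to 4 and 14.4, 33.2 and 31.0 CPM in hypodermal libraries 1 to 3. Each hypodermal library was under every control, and the log2 fold change was −1.38 (SE 0.47), with an unadjusted p of 0.0133 and an adjusted p of 1.00 by edgeR. The groundhog gene grd-6 (chromosome V, 9224281–9224354, plus strand) had 25.4, 37.5, 32.6 and 8.29 CPM in controls 1 to 4 and 9.76, 14.2 and 8.38 CPM in hypodermal libraries 1 to 3. Control 4 was as low as the hypodermal libraries, so the groups overlapped. The log2 fold change was −1.26 (SE 0.50), with an unadjusted p of 0.0269 and an adjusted p of 1.00 by edgeR.

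Across the 33 members, grd-1, grd-2, wrt-8 and wrt-9 had all 3 hypodermal libraries above the 4 controls, beside 2.62% of all genes, and grl-21 alone had them below, beside 2.25%. None of the 5 passed the adjusted threshold in edgeR. For wrt-9 the means were 15.7 ± 8.60 (SD, n = 4) against 27.3 ± 1.46 (SD, n = 3) CPM, for grd-1 10.1 ± 4.79 (SD, n = 4) against 18.4 ± 2.54 (SD, n = 3) CPM and for wrt-8 1.73 ± 1.34 (SD, n = 4) against 5.38 ± 2.11 (SD, n = 3) CPM. Of these, wrt-9, grd-1 and wrt-8 were singled out after their values were seen. The summed CPM of the hypodermis marker list also had every hypodermal library above every control, though the mean of its member nhr-23 was lower. The most-read members had small differences: log2 fold changes of 0.10 (SE 0.31) for grd-5, 0.31 (SE 0.28) for grl-16 and −0.50 (SE 0.37) for grd-14. For grl-5, grl-7 and grl-4 they were 0.066 (SE 0.34), 0.21 (SE 0.35) and −0.34 (SE 0.29). The warthog genes wrt-4, wrt-2, wrt-6 and wrt-5 had 0.61 (SE 0.32), 0.24 (SE 0.41), −0.23 (SE 0.38) and −0.32 (SE 0.30), and qua-1 and hog-1 had 0.51 (SE 0.38) and 0.37 (SE 0.50).

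**Figure D2:**
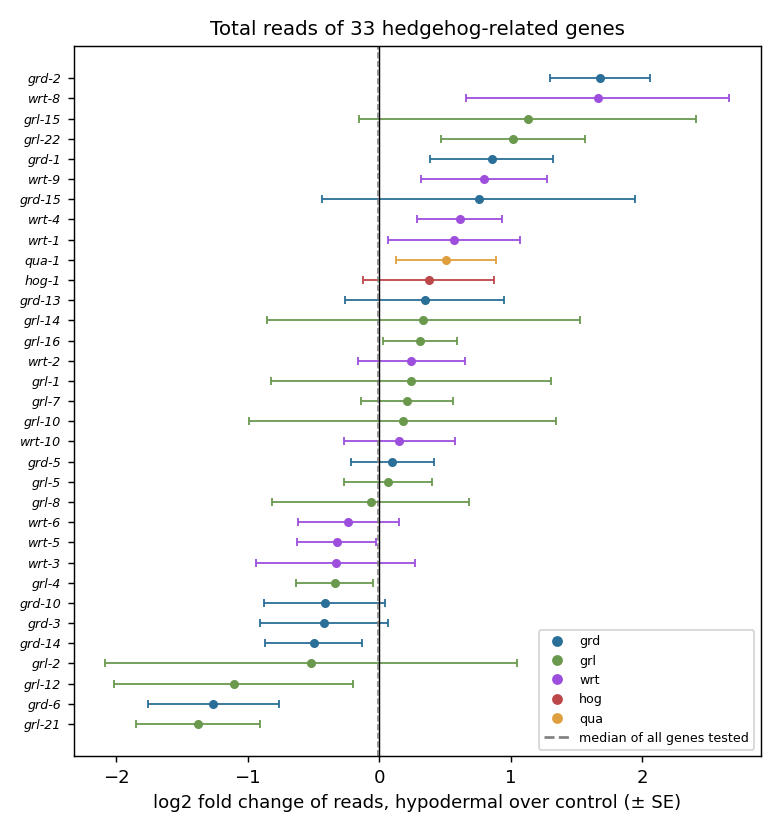
Log2 fold change of total reads, hypodermal over control, for the 33 members tested, ordered by value and coloured by family. Points are edgeR estimates and bars their standard errors; the dashed line is the median of all genes tested, −0.0072. At the top, grd-2 has a short bar at 1.68, and at the bottom grl-21 and grd-6 lie at −1.38 and −1.26.

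Summed over all 43 members, reads came to 3036 ± 243 CPM (SD, n = 4) in the controls and 3208 ± 393 CPM (SD, n = 3) in the hypodermal libraries, a log2 ratio of 0.079 and a difference smaller than the SD of either group. Without hypodermal 2 the log2 ratio was −0.018, without hypodermal 1 it was 0.16 and without control 3 it was 0.12. Without control 2 or control 4 it was 0.042 or 0.052. By family, the grd genes summed to 1391 ± 255 against 1353 ± 241 CPM, the grl genes to 1300.2 ± 158 against 1456 ± 159 CPM and the wrt genes to 301 ± 83.3 against 337 ± 34.0 CPM. Without grd-5, grl-16 and grd-14 the remaining 40 members summed to 957 ± 174 against 985 ± 126 CPM.

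The labelled share was compared next, to see which members carried more T>C reads where the hypodermis had FLP. Of all member reads, 2.32%, 3.54%, 2.54% and 2.21% were labelled in controls 1 to 4 and 2.20%, 2.41% and 2.64% in hypodermal libraries 1 to 3. The 95% Wilson intervals, which cover counting error only, ran from 2.10–2.34% in control 4 to 3.23–3.89% in control 2. In the hypodermal group they ran from 2.13–2.26% in hypodermal 1 to 2.51–2.77% in hypodermal 3. The groups thus overlapped, with hypodermal 2 and 3 among the controls and hypodermal 1 just under control 4, the lowest control. The means were 2.65% ± 0.608 (SD, n = 4) against 2.41% ± 0.219 (SD, n = 3), a difference of −0.24 percentage points. Without control 2 the control mean was 2.36% ± 0.168 and the difference 0.056 points. Within the flow cell libraries, which again include control 2, the difference was −0.246 points, and between the 2 replicates numbered 1 it was −0.117 points. Over all genes the labelled share was 3.16% ± 0.952 against 3.56% ± 0.206, a difference of 0.3998 points. Without control 2 the all-gene control share was 2.69% ± 0.0868 (SD, n = 3) and the difference 0.874 points, larger than the SD of either group.

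By family, the pooled labelled share was 2.49% ± 0.571 against 2.32% ± 0.168 for grd, 2.73% ± 0.639 against 2.44% ± 0.304 for grl and 2.66% ± 1.25 against 2.66% ± 0.389 for wrt (SD, n = 4 and 3). Without control 2 the wrt controls were at 2.06% ± 0.444 (SD, n = 3) and the wrt difference was 0.5996 points in place of 0.0024. The grd and grl differences changed sign without it, to 0.052 and 0.021 points. For the 40 members other than grd-5, grl-16 and grd-14, the difference was −0.038 points with control 2 and 0.974 points without it. The pooled value is weighted towards the 3 most-read members. The median over the 26 tested members, which weights them equally, was 1.39% ± 0.997 in the controls and 2.99% ± 0.806 in the hypodermal libraries, beside 1.45% ± 1.19 and 2.59% ± 0.286 for the median over the 9821 genes tested. The members' median was thus higher in the hypodermal group by 1.60 points, and that of all genes by 1.14 points. The filter asked for at least 10 labelled reads over all libraries together, so a gene could pass through a single group. The member grl-15 did so, with 0 labelled reads in the controls and 55 in the hypodermal libraries. Most labelled reads of grl-1 and grl-14 were also in the hypodermal libraries. The part of this filter in the 2 differences was not tested. By library the members' median was 1.43%, 2.32%, 0% and 1.81% in controls 1 to 4. It was 2.43%, 2.63% and 3.92% in hypodermal libraries 1 to 3. In control 3 the median over all genes tested was also low, at 0.145%, and the part of thin reads in this difference was not tested.

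**Figure D3:**
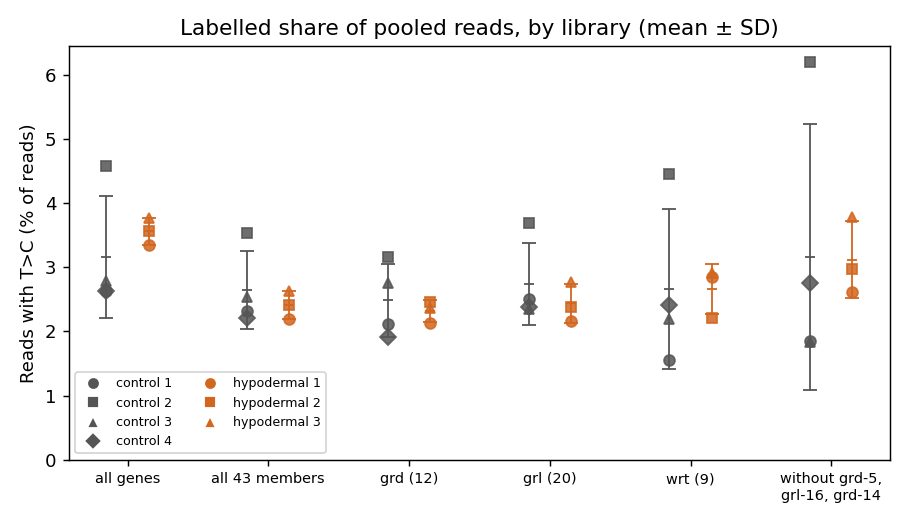
Percentage of reads with a T>C mismatch, pooled over all genes, over the 43 members, over each family with several members, and over the members without the 3 most-read. Symbols are libraries (grey control, orange hypodermal), and bars are the group mean ± SD. Control 2 is the highest library in every column, and the hypodermal libraries of the members lie between 2.20% and 2.64%.

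Gene by gene, the labelled fraction was tested with edgeR's quasi-likelihood test on labelled and unlabelled reads, with Benjamini-Hochberg adjustment over 9821 genes. The result is a log2 odds ratio, hypodermal over control. None of the 26 members passed an adjusted p of 0.05, beside 0% of all genes for higher and 0% for lower. At an unadjusted p under 0.05, 1 of 26 (grl-15) was higher, with 2.86% of all genes, and 0 were lower, with 0.407% of all genes. Without control 2 the count was also 0 of 26, beside 20 of 9730 genes (0.206%) called higher and 0% lower. The limma fit of log2 odds gave 0 members at either threshold, beside 0% of all genes at the adjusted one, and 2.49% higher and 1.41% lower at the unadjusted one. The median of the 26 log2 odds ratios was 0.76, with 18 above 0, while over all genes it was 0.54 and 70% were above 0. Some of the 26, such as grl-15, passed the filter on labelled reads through the hypodermal libraries alone. All 3 hypodermal libraries lay above the 4 controls in 2 members, grl-7 and grl-15, beside 5.52% of all genes, and below them in 0, beside 0.346%. The 8 hypodermis markers had a pooled labelled share of 2.08% ± 0.413 against 2.09% ± 0.0912 in the same libraries (SD, n = 4 and 3).

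The ground-like gene grl-7 had enough reads for a share in every library. Labelled reads were 89, 3, 4 and 46 of 6604, 462, 647 and 4534 reads in controls 1 to 4, and 150, 84 and 83 of 9715, 2929 and 3125 reads in hypodermal libraries 1 to 3. As shares these were 1.35%, 0.649%, 0.618% and 1.01% in controls 1 to 4 and 1.54%, 2.87% and 2.66% in hypodermal libraries 1 to 3, with 95% Wilson intervals of 1.10–1.66% in control 1, the highest control, and 1.32–1.81% in hypodermal 1, the lowest hypodermal library. These intervals overlapped, although the groups did not. The means were 0.907% ± 0.344 (SD, n = 4) against 2.36% ± 0.711 (SD, n = 3), and the log2 odds ratio was 1.31 (SE 0.73), with an unadjusted p of 0.0702 and an adjusted p of 1.00 by edgeR. In the libraries with a named flow cell alone it was 1.84, with an unadjusted p of 0.0502 (edgeR quasi-likelihood test). By the same test grl-7 was higher at an unadjusted p under 0.05 without control 1 and on converted Ts in place of reads. At that level these fits had 186 of 9580 and 304 of 9821 genes higher, and after adjustment they called 0 members.

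The ground-like gene grl-15 (chromosome III, 12232632–12232728, minus strand) showed labelled reads in the hypodermal strain alone, on a very uneven depth. Labelled reads were 0, 0, 0 and 0 of 714, 6, 5 and 5 reads in controls 1 to 4, and 49, 2 and 4 of 1330, 6 and 96 reads in hypodermal libraries 1 to 3. Control 1 and hypodermal 1 held nearly all reads of this gene, and their CPM was 12.4 and 19.6 beside 0.244–1.40 in the other controls and 0.302 and 5.03 in hypodermal 2 and 3. In hypodermal 1 the labelled share was 3.68% (95% Wilson interval 2.80–4.84%), while 0 of 714 reads in control 1 allows up to 0.420%. In controls 2 to 4, 0 of 5 or 6 reads sets no useful limit. Taking 3 counts over the 730 control reads as the floor, 0.411%, the pooled share of 3.84% in the hypodermal group was 9.35-fold that floor. This bound covers counting error only. It compares in the main hypodermal 1 with control 1, so it sets no lower limit for the strains. The fitted log2 odds ratio of 6.78 (SE 3.01) depends on the prior count and had an unadjusted p of 0.0242 and an adjusted p of 1.00 by edgeR. Without control 1 the p was 0.341, and without hypodermal 1 or in the flow cell libraries alone too few reads were left for a test. With grl-15 set at its bound, a log2 of 3.22, the median log2 odds ratio of the 26 members stayed at 0.76. It could not change, since both values of grl-15 lie above it.

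Of the 43 members with an entry, 2 (grl-7 and grl-15) are among the 198 genes in the authors' deposited table of labelled genes. Over the whole series 27909 genes had an entry, and whether members are listed more often than other genes was not tested. The table compares the same 2 strains of this series, so it is not independent of the results above. It uses conversion rates in place of labelled reads, and its name gives a false discovery rate of 10%. There grl-7 has a mean conversion of 0.0153% in the control and 0.0773% in the hypodermal strain, a ratio of 5.05 with a p of 0.000785 and an adjusted p of 0.0635 in the authors' deposited table. The authors' deposited table gives grl-15 a mean conversion of 0% and 0.474%, with a p of 0.00197 and an adjusted p of 0.0855. No source used here states the test behind these p-values.

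The 3 most-read members had the most precise shares, and none had a higher mean share in the hypodermal group. For grd-5 the shares were 2.39%, 2.40%, 2.92% and 1.93% in controls 1 to 4 and 2.24%, 2.39% and 2.22% in hypodermal libraries 1 to 3, with means of 2.41% ± 0.406 (SD, n = 4) against 2.28% ± 0.0961 (SD, n = 3) and a log2 odds ratio of −0.064 (SE 0.34). For grl-16 they were 2.83%, 1.92%, 2.67% and 1.99% in controls 1 to 4 and 2.01%, 2.15% and 1.98% in hypodermal libraries 1 to 3, with a log2 odds ratio of −0.19 (SE 0.35). For grd-14 they were 1.52%, 1.83%, 2.51% and 1.08% in controls 1 to 4 and 1.04%, 1.63% and 1.42% in hypodermal libraries 1 to 3, with a log2 odds ratio of −0.32 (SE 0.52). In each of these genes the groups overlapped, and the estimate was less than 1 SE from 0. Even with 60886 reads of grd-5 in hypodermal 1, the share there was 2.24% (95% Wilson interval 2.12–2.36%), under the 3.35% of all genes in the same library.

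In the other well-read members libraries of 1 group differed by more than the group means. For grl-5 the shares were 1.92%, 15.0%, 2.37% and 5.23% in controls 1 to 4 and 3.40%, 4.30% and 6.23% in hypodermal libraries 1 to 3, with control 2 at several times the other controls and a log2 odds ratio of 0.042 (SE 0.69). For grl-4 they were 2.29%, 1.20%, 3.41% and 1.53% in controls 1 to 4 and 1.73%, 0.618% and 1.26% in hypodermal libraries 1 to 3, overlapping, with −0.84 (SE 0.72). The 6 hypodermal values of these genes lay between 0.618% and 6.23%. The warthog gene wrt-6 had 2.53%, 5.13%, 0% and 3.83% in controls 1 to 4 and 4.50%, 3.83% and 3.10% in hypodermal libraries 1 to 3, where 0 of 469 reads in control 3 allows up to 0.640%, and a log2 odds ratio of 0.71 (SE 0.90). For wrt-4 the shares were 0.986%, 5.94%, 1.43% and 0.826% in controls 1 to 4 and 2.52%, 0.790% and 2.56% in hypodermal libraries 1 to 3, and for wrt-5 they were 2.50%, 2.07%, 5.83% and 1.66% in controls 1 to 4 and 2.70%, 1.73% and 0.643% in hypodermal libraries 1 to 3. Control 2 stood out in wrt-4 and control 3 in wrt-5, and the log2 odds ratios were 0.14 (SE 0.89) and −0.84 (SE 1.06). In wrt-2 the shares were 0.207%, 4.43%, 0% and 1.69% in controls 1 to 4 and 0.0629%, 1.15% and 2.31% in hypodermal libraries 1 to 3, with 1 labelled read of 1591 in hypodermal 1 and a log2 odds ratio of −0.28 (SE 1.47).

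In the members given for their total reads, the labelled shares of the strains overlapped. In grd-2 the shares were 0%, 21.7%, 0% and 10.6% in controls 1 to 4 and 2.35%, 5.63% and 6.38% in hypodermal libraries 1 to 3, the 0 of 375 reads in control 1 allowing up to 0.800%, and the log2 odds ratio was 0.40 (SE 1.75). In grd-6 they were 0.685%, 21.7%, 0% and 8.82% in controls 1 to 4 and 0.754%, 15.3% and 8.12% in hypodermal libraries 1 to 3, with 0.97 (SE 1.82), and in grl-21 they were 0.114%, 1.05%, 0.194% and 1.36% in controls 1 to 4 and 0.409%, 0.455% and 5.24% in hypodermal libraries 1 to 3, with 1.27 (SE 1.32). All 3 genes had overlapping groups, and in grl-21 hypodermal 3 alone was above every control. The moulting gene qua-1 had 7.97%, 2.25%, 0.909% and 3.05% in controls 1 to 4 and 1.29%, 0.245% and 3.65% in hypodermal libraries 1 to 3 and a log2 odds ratio of −1.30 (SE 1.27), with control 1 highest. In hog-1 the shares were 0.252%, 0%, 0% and 4.85% in controls 1 to 4 and 0.310%, 12.3% and 4.27% in hypodermal libraries 1 to 3, with a log2 odds ratio of 1.90 (SE 2.20), and 26 reads were labelled in hypodermal 2. This ratio was 0.57 without hypodermal 2, 0.80 without control 1, 3.20 without hypodermal 1 and 3.75 without control 4, and 0.17 on converted Ts in place of reads.

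**Figure D4:**
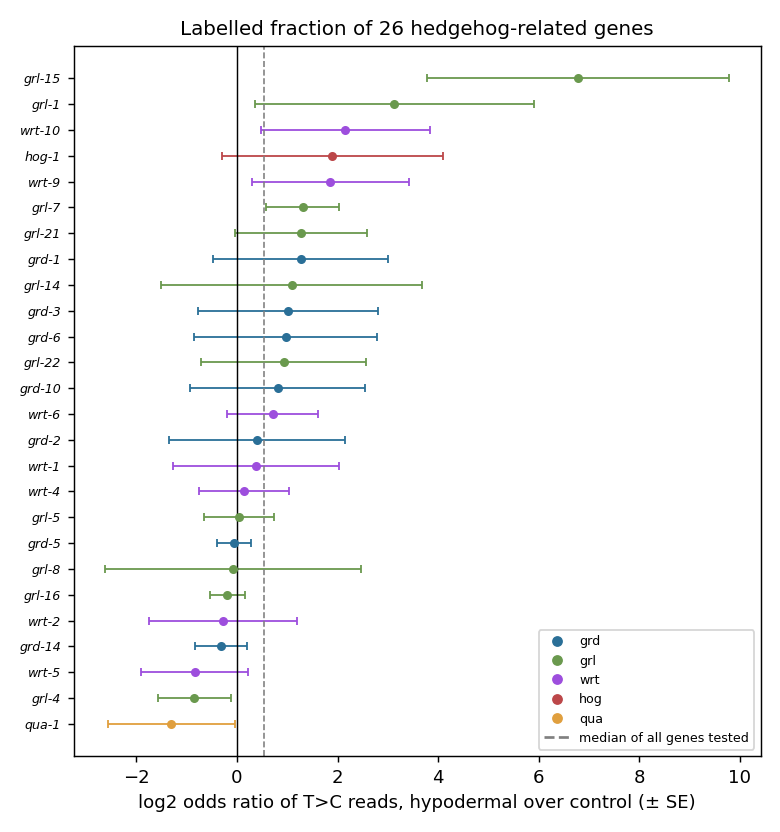
Log2 odds ratio of T>C reads, hypodermal over control, for the 26 members tested, ordered by value and coloured by family. Points are edgeR estimates and bars their standard errors; the dashed line is the median of all genes tested, 0.54. The precise estimates of grd-5, grl-16 and grd-14 lie near 0, grl-7 lies at 1.31, and grl-15 at 6.78 has the widest bar.

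Labelled reads were spread unevenly over members and libraries. The counts below were not made over all genes, so whether the members differ from other genes in this was not tested. With each library's own all-gene share as the expectation, 26 members had at least 5 labelled reads expected in control 1, and 4 of them (grd-2, grd-13, grl-15 and wrt-3) had 0. In hypodermal 1, 27 had at least 5 expected and 2 (wrt-3 and wrt-8) had 0. In control 3, 13 had at least 5 expected and 3 (grd-6, wrt-2 and wrt-6) had 0. Control 4 had 21 such members and 1 (grd-13) at 0. Control 2, with 12 such members, and hypodermal 2 and 3, with 23 each, had 0 without a labelled read. The warthog gene wrt-8 had 0 labelled of 843 reads over all libraries, which allows a share of up to 0.356%, and the groundhog gene grd-13 had 0 of 930 in the controls and 7 of 1067 in the hypodermal libraries.

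The opposite case was grl-8, a ground-like gene with 535 reads over all libraries. It had 47, 0, 0 and 0 of 196, 8, 30 and 44 reads in controls 1 to 4, and 33, 0 and 0 of 142, 75 and 40 reads in hypodermal libraries 1 to 3. The 95% Wilson interval of the share was 18.5–30.4% in control 1 and 17.1–30.8% in hypodermal 1, the 2 libraries without a named flow cell. Hypodermal 2, with 0 of 75 reads, allowed up to 4.00%. Each labelled read of grl-8 held 2.16 converted Ts inside the UTR on average, more than the 1.01 of grd-5. At the other end of the members tested for labelling, wrt-6 had 0.37, wrt-1 0.43 and hog-1 0.60 converted Ts inside the UTR per labelled read. The groundhog gene grd-10 had labelled shares of 3.43%, 45.9%, 4.32% and 7.40% in controls 1 to 4 and 9.43%, 17.5% and 15.4% in hypodermal libraries 1 to 3, with 17 of 37 reads labelled in control 2 (Wilson interval 31.0–61.6%). Its hypodermal libraries lay above controls 1, 3 and 4 and below control 2. Its share was 9.37% over the reads of all libraries, less than in grl-8 and grl-14, while its mean share per library, 15.3% ± 20.5 (SD, n = 4) against 14.1% ± 4.18 (SD, n = 3), was higher than theirs in both groups. Without control 2 its control mean was 5.05%, lower than 7.99% in grl-8 and 6.67% in grl-14. These members were singled out after their values were seen.

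**Figure D5:**
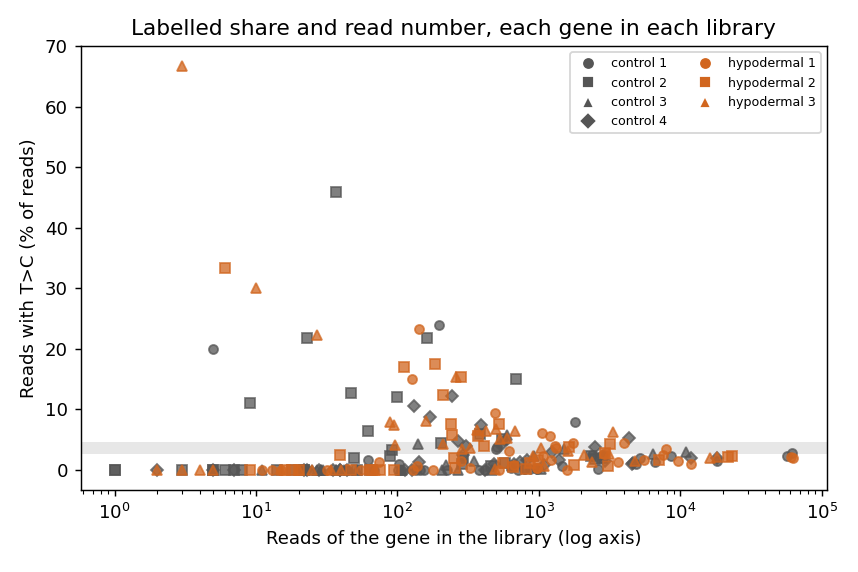
Percentage of reads with a T>C mismatch against the number of reads, for each member in each library with at least 1 read (log x axis). The grey band is the range of the all-gene share over the 7 libraries, 2.63–4.58%. The most-read members, at the right, lie in or under the band, and the highest shares belong to thinly read members, such as 66.7% in 3 reads of grd-9.

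What the members share beyond the rule was examined for position and UTR content. Several members are neighbours in the genome. On chromosome II wrt-1 and wrt-10 converge with 15 bases between them, and their log2 fold changes of reads were 0.57 (SE 0.50) and 0.15 (SE 0.42). On chromosome IV grd-13, grd-3 and grd-10 follow each other on the plus strand, with 147 and 601 bases between them; their log2 fold changes were 0.34 (SE 0.61), −0.42 (SE 0.49) and −0.42 (SE 0.46). On chromosome V grl-9 had 4 reads in all and grl-8 535, though 136 bases separate them. The number of covered Ts per read ran from 14.4 to 32.9 over the 26 members tested for labelling. Across these members it had a Pearson correlation of 0.034 and a Spearman correlation of −0.0024 with the pooled labelled share, a description over genes that share their libraries.

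The other genes of the pathway were taken from a list of 39 patched, patched-related, sterol-sensing, dispatched-like and acyltransferase genes, the GLI orthologue and epidermal regulators. Of these, 35 had an entry. By edgeR's quasi-likelihood test 0 of 31 passed an adjusted p of 0.05 in total reads and 0 of 30 in labelled fraction, and DESeq2 also called 0 of 31 in reads. The median log2 fold change of the list was 0.16, beside −0.0072 for all genes, and its median log2 odds ratio 0.79, beside 0.54. At an unadjusted p under 0.05, 1 of 31 (ptr-1) was higher in reads, beside 0.73% of all genes, and 1 of 30 (ptr-16) in labelled fraction, beside 2.86%. The Patched homologue ptc-1, known for its role in germline cytokinesis, had 311 ± 187 CPM in the controls (SD, n = 4) and 231 ± 14.1 in the hypodermal libraries (SD, n = 3), a log2 fold change of −0.43 (SE 0.47). Its homologue ptc-3 had 61.0 ± 34.6 against 98.2 ± 2.80 CPM, a log2 fold change of 0.68 (SE 0.41). The GLI orthologue tra-1, a regulator of sex determination in the worm, had 66.4 ± 18.8 against 71.3 ± 15.0 CPM, a log2 fold change of 0.10 (SE 0.31). Their log2 odds ratios of labelled reads were 0.83 (SE 0.55), −0.15 (SE 0.97) and 1.09 (SE 0.96) in the same order, and none passed. The patched-related genes ptr-13 and ptr-19 and the regulator grh-1 were at 0 reads in all libraries.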

How the data were processed

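T>C labelling and total reads were measured in 7 libraries, 4 of the control and 3 of the hypodermal strain, grouped by sample title. The authors made the per-library counts with slamdunk 0.4.3, per the file headers: reads, reads with T>C, covered Ts and converted Ts for each of 47039 3′ UTR entries. The deposited fraction is the conversion rate, and the deposited score is a CPM; neither was used in a test. The authors' deposited table gives a p-value, mean conversion fractions and their ratio for 198 genes, which its name says needed 17 or more T>C at a 10% false discovery rate; its 21 other per-library columns were not used. Aligner settings, the T>C threshold per read, variant masking and strand are not stated in any source used here. DESeq2 and ce10 are named, without a role, in the submitters' processing notes; the headers name WBcel235, and all 42 member entries with an annotated UTR had the same stop codon side in WBcel235, so coordinates are of that build.

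Entries were joined to genes by transcript (42202) or sequence name (4816); 21 without a gene, with 0.00444% of reads, were left out. Of overlapping entries of a gene the most-read was kept. Total reads were tested with edgeR 4.0.16 (R 4.3.3, quasi-likelihood F-test, TMM) over genes with a mean of at least 20 reads, and labelling on pairs of T>C and other reads with library terms, over genes with also at least 10 T>C reads, both two-sided with Benjamini-Hochberg adjustment at 0.05. DESeq2 1.42.0 and limma 3.58.1 served as alternatives; 63 genes had no adjusted p in DESeq2. The fits were also run on simulated counts with a fixed spread between libraries that was not estimated from these data, so no conclusion is drawn from that run. Pooled percentages and summed CPM over members are descriptions without a test. Gene reads were 5040693 to 61924868 per library; Wilson intervals (95%) and floors of 3 counts cover counting error only, since the reads carry no stated molecular identifiers.

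Members given library by library were the 12 with the highest mean CPM, the most-read of each family and those with p under 0.05 in either test. Of the pathway list those past an adjusted p of 0.05, tra-1, ptc-1 and ptc-3 were to be given. The members and lists were chosen with earlier results of these data known. No sequences are printed.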

Additional observations from a re-analysis of the deposited data

Results flagged for a closer look

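Of 34 checks for a library far from the other controls (Dixon's test on 4 samples), 5 pointed to a library, while chance alone flags about 1 in 20. The labelled share of all genes was 4.58% in control 2, and the same library was far above the others for wrt-4, at 5.94%. For hog-1 the labelled share stood apart in control 4, at 4.85%. Control 1 stood apart in read level for grl-15, at 12.4 CPM, and for wrt-5, at 41.2 CPM, the first above and the second below the other controls. The hypodermal group has 3 libraries and was not checked in this way.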

How the results depend on the processing

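No alternative called a member in labelled fraction, and in total reads only DESeq2 did, calling 1 (grd-2); the cause was not tested. Taken as the median of the tested members, which weights them equally, the labelled difference was 1.60 points, with control 3 at a median of 0%. Some of these members, such as grl-15, passed the filter through the hypodermal libraries alone. The pooled labelled difference was −0.387 to 0.0557 points when 1 library at a time was left out. The log2 ratio of summed CPM then ran from −0.018 to 0.16. The flow cell libraries alone, and leaving out the 3 most-read members, were chosen after seeing the data. Over all genes, labelled calls went from 0 to 20 without control 2, and calls in reads from 0 higher and 2 lower to 9 and 15 with DESeq2 and to 0 with the replicate block; which genes these were was not compared.

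No estimate that changed sign had passed a test. When 1 library at a time was left out, the log2 odds ratio ran from −0.93 to 2.03 in grd-2, −0.17 to 0.039 in grd-5, −0.20 to 2.32 in grd-6, −0.017 to 2.02 in grl-21, −0.42 to 0.66 in grl-5, −1.30 to 0.81 in wrt-2 and −0.20 to 0.79 in wrt-4. The log2 fold change of reads ran from −0.072 to 0.32 in grd-5, −0.48 to 3.59 in grl-15, −0.12 to 0.32 in grl-5, −0.0019 to 0.50 in wrt-2 and −0.46 to 0.0037 in wrt-6. In the flow cell libraries alone the log2 odds ratio was −0.46 in grd-2, −0.20 in grl-5, 0.073 in wrt-2 and −0.46 in wrt-4. Centred on the odds of all reads it was −0.21 in grl-5 and −0.092 in wrt-4, and on converted Ts it was 0.55 in wrt-2. For these reversals the cause was not tested.

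The labels do not say that replicate numbers pair the samples. Deviations of same-numbered libraries from their group means had correlations of 0.51, 0.18 and −0.08 in log2 CPM. Differently numbered libraries had −0.37 to 0.28. Control 1 and hypodermal 1, both without a named flow cell, were thus the most alike across the groups, and the main fits hold no term for this. In log2 odds of T>C reads the same-numbered correlations were 0.026, −0.0054 and −0.0052. With the replicate block the log2 odds ratio of wrt-4 was −0.20 and the log2 fold change of wrt-6 was 0.072, while 0 members were called in either test. At an unadjusted p under 0.05 the block gave 4 members with higher and 3 with lower reads in place of 1 and 2, beside 219 and 209 of all 12465 genes in place of 91 and 193. It left the unadjusted labelling p of grl-15 at 0.0924, against 0.324 by limma and a range of 0.0196 to 0.341 over all alternatives. Control 2, with 5040693 reads, limits the precision of the labelled shares.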

Other observations

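Members outside the 16 given library by library had means of at most 20.7 CPM. The ground-like gene grl-22 had 13.3 ± 8.29 (SD, n = 4) against 26.6 ± 8.82 (SD, n = 3) CPM and a log2 fold change of reads of 1.01 (SE 0.55). The groundhog genes grd-3 and grd-10, which are neighbours, had 17.3 ± 10.5 (SD, n = 4) against 13.0 ± 4.05 (SD, n = 3) CPM and 13.3 ± 5.47 (SD, n = 4) against 10.0 ± 3.29 (SD, n = 3) CPM. For wrt-1 the means were 10.5 ± 5.22 (SD, n = 4) against 15.5 ± 3.58 (SD, n = 3) CPM, and for its neighbour wrt-10 they were 16.8 ± 6.75 (SD, n = 4) against 18.7 ± 7.05 (SD, n = 3) CPM. The labelled shares of wrt-10 and wrt-9 had log2 odds ratios of 2.16 (SE 1.68) and 1.86 (SE 1.57), and none of these genes passed a test.

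Several thinly read members had their reads in few libraries. For grd-12, 62 of its 121 reads were in control 1 and 55 in hypodermal 1, the libraries without a named flow cell, and controls 2 and 3 and hypodermal 2 were at 0. All 44 reads of grl-11 were in control 1. Of the 2162 reads of grl-15, 714 were in control 1 and 1330 in hypodermal 1. Of the 11 reads of grl-20, 10 were in hypodermal 3, and 3 of these were labelled. On the CPM scale grd-12 had 1.08 in control 1 and 0.810 in hypodermal 1, beside at most 0.105 in the other libraries.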
